A study of Mus musculus with 32 samples.

Results

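The genes described here are 10 transcripts that mark natural killer (NK) cells and cytotoxic T cells: Gzma, Gzmb, Prf1, Nkg7, Ccl5, Klrd1, Klre1, Klrb1c, Ncr1 and Klrk1. They were taken by symbol, as 10 of the 24940 genes of the deposited expression table, because they stood out in libraries of lung monocytes. Their monocyte and macrophage levels therefore chose them and are given as a description, with no test. Tests were made of the differences between mouse strains and between the monocyte types. Whether these were also in view when the genes were chosen was not recorded, so their p-values may not be independent of the choice.

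The series covers 2 macrophage and 2 monocyte populations of the lung in untreated mice of 2 inbred strains, spelled C57BL6/J and DBA2/J in the labels (C57BL6J and DBA2J below). The macrophages are alveolar (AM) or interstitial (IM), and the monocytes are called inflammatory (iMo) or patrolling (pMo). One label field names both monocyte types macrophages, and the series title speaks of activated phagocytes although no treatment was given. Each of the 8 groups of cell type and strain had 2 RNA-seq libraries, 16 in all, and 1 list of open-chromatin (ATAC-seq) peaks. The labels give neither age nor sex, and do not say that libraries of a group are from different mice. The p-values therefore measure only the spread between these libraries, which may be technical. The sort used antibodies to SiglecF, Ly6g, Ly6c, CD64, CD11b, CD11c, F4/80 and CD45. None of these is a marker specific to NK, T or B cells.

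NK cells and cytotoxic T cells kill by releasing granules that carry perforin, which opens the target's membrane, and granzymes, proteases that enter through it. Activating receptors such as NKp46 and NKG2D and inhibitory pairs such as CD94 with NKG2A set whether a cell releases its granules. Monocytes and macrophages are not classical users of this granule programme, and the lung's circulation is rich in NK cells. In bulk libraries fewer cells of a type and less RNA per cell cannot be told apart.

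Regulators of the T-box family (T-bet and Eomes) and of the RUNX family are known to act in cytotoxic lymphocytes, so the promoter sequences were searched for their core letters. The T-box letters were AGGTGTNA and the RUNX letters TGTGGT, each on either strand. RefSeq promoter sequences of build GRCm38.p6 matched 8 of the 10 genes, all but Klrd1 and Ccl5. The 250 bases before the start site are shown for the granule genes Gzma, Gzmb and Nkg7 and the receptors Klrb1c and Ncr1, 5′ to 3′ on the gene's strand, with matches in capitals. The window of Gzma is chr13:113100982-113101231 (minus strand), that of Gzmb chr14:56262335-56262584 (minus), of Nkg7 chr7:43436888-43437137 (plus), of Klrb1c chr6:128788642-128788891 (minus) and of Ncr1 chr7:4337474-4337723 (plus).
Gzma: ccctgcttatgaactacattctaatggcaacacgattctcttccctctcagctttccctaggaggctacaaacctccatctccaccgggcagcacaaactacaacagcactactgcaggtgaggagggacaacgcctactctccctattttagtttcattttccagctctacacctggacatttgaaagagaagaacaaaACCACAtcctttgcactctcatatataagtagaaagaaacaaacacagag
Gzmb: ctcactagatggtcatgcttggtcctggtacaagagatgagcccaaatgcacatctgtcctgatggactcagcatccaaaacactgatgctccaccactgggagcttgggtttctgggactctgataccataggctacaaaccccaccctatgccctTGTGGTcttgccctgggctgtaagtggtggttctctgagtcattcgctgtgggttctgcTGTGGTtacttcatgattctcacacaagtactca
Nkg7: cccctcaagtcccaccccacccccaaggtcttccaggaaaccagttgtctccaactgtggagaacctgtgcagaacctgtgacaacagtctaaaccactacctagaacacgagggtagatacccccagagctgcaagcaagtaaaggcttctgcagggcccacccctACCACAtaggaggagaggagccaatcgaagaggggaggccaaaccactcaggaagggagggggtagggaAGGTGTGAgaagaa
Klrb1c: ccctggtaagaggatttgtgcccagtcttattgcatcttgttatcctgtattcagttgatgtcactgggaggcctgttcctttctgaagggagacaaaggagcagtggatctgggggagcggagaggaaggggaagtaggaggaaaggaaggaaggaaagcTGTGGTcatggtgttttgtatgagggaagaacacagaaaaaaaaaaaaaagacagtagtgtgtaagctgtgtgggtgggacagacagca
Ncr1: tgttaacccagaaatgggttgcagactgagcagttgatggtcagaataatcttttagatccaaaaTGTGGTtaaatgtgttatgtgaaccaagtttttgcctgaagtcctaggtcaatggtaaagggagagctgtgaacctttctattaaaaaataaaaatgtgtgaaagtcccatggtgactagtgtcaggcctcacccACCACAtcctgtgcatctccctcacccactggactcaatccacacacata
The RUNX letters occurred in 7 of the 8 windows, all but that of Klre1, against 14.05% of 32851 mouse promoter windows of the same length. They lay 50 bases before the start in Gzma, 93 and 34 bases in Gzmb, 83 bases in Nkg7, 89 bases in Klrb1c, and 185 and 50 bases in Ncr1. Prf1 held 1 match at 130 bases and Klrk1 1 at 129 bases, the latter in a window that starts 1181 bases from the start in the expression table. The T-box letters occurred in 1 of the 8, Nkg7, at 14 bases before the start, against 2.682% of all windows. A match describes letters only, and no match says nothing about the factor.

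Levels are the authors' TPM, reads scaled by a gene's length and by the library's total. The length column of their table equals the genomic span, introns included, for 99.2% of genes, so TPM compares 1 gene between libraries but not one gene with another. Because of that length the whole reads behind each value could be recovered, and 99.6% to 100.0% of the values precise enough to check came within 0.1 of a whole read. Reads in genes ran from 6676150 to 22616586 per library. The ribosomal entries Rn45s and Mir6236 took 22.6% to 67.6% of the TPM, which leaves 6380647 to 12170074 other reads in a monocyte library. Read counts are not independent molecules, so intervals on them cover counting error only. The sorted types were checked against their markers: 6 of 6 inflammatory monocyte genes were higher and 8 of 9 patrolling monocyte genes lower in iMo than in pMo, where 18.9% of all 12277 genes tested were higher and 6.36% lower. One library stood apart among those of DBA2J monocytes, replicate 2 of pMo, which held the highest level of 9 of the 10 genes.

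**Figure D1:**
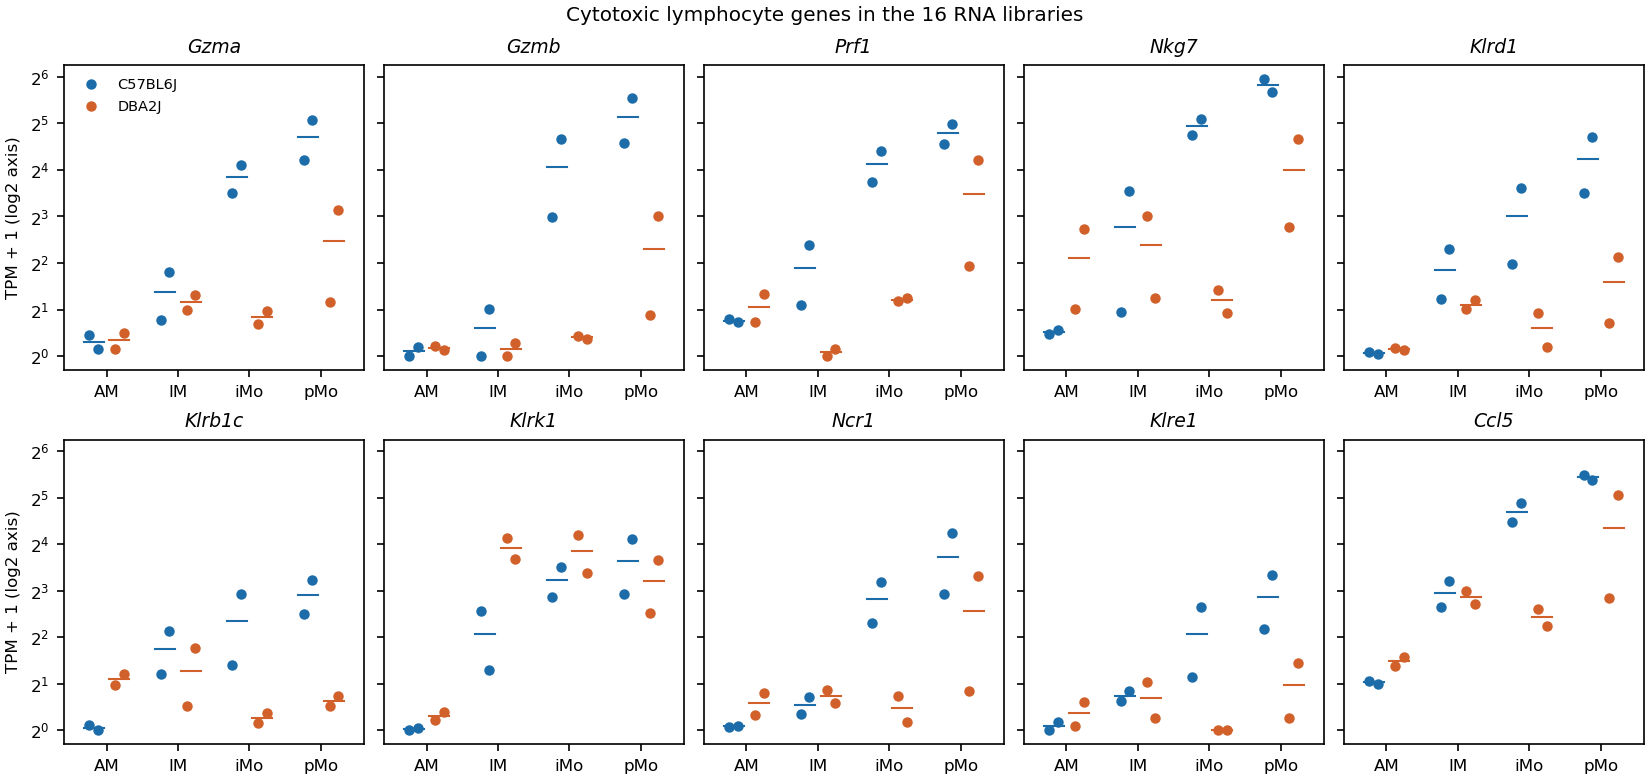
Level of each gene in the 16 RNA libraries, as TPM + 1 on a log2 axis, by cell type (AM, IM, iMo, pMo). Points are libraries, blue for C57BL6J and orange for DBA2J, and bars are the means of 2 libraries. The C57BL6J pMo mean is the highest for all genes but Klrk1, and the second DBA2J pMo library lies within the C57BL6J range for several genes.

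Granzyme A, granzyme B, perforin and the granule membrane protein NKG7 had their highest group means in C57BL6J pMo. Gzma (chr13:113093824-113100981, minus strand, build mm10) read 10.4 and 16.2 TPM in iMo and 17.7 and 32.5 TPM in pMo of C57BL6J. In DBA2J it read 0.611 and 0.960 TPM in iMo and 1.24 and 7.81 TPM in pMo, all below the lowest C57BL6J monocyte library. The 8 macrophage libraries ran from 0.109 to 2.49 TPM with a median of 0.567.

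Gzmb (chr14:56258836-56262334, minus) read 6.88 and 24.5 TPM in iMo and 22.9 and 45.7 TPM in pMo of C57BL6J, but 0.357 and 0.281 TPM in iMo and 0.848 and 7.03 TPM in pMo of DBA2J. The 2 DBA2J iMo libraries rest on 2 reads and 1 read, whose exact Poisson intervals (95%) reach from 0.242 to 7.22 and from 0.0253 to 5.57 reads. The strains overlapped only through the second DBA2J pMo library.

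Prf1 (chr10:61297836-61304263, plus), the gene of the pore-forming protein, read 12.4 and 20.3 TPM in iMo and 22.7 and 30.6 TPM in pMo of C57BL6J. In DBA2J the values were 1.26 and 1.37 TPM in iMo and 2.85 and 17.7 TPM in pMo, so that the last of these lay inside the C57BL6J range.

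Nkg7 (chr7:43437138-43438246, plus) read 25.8 and 33.4 TPM in iMo and 61.0 and 50.2 TPM in pMo of C57BL6J. In DBA2J it read 1.69 and 0.886 TPM in iMo and 5.80 and 24.4 TPM in pMo, below every C57BL6J monocyte library. Its span is short, and macrophage levels of up to 10.7 TPM in IM of C57BL6J come from 10 reads.

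Ccl5 (chr11:83525779-83530518, minus), a chemokine that activated lymphocytes secrete, read 21.3 and 28.7 TPM in iMo and 43.6 and 41.0 TPM in pMo of C57BL6J. The DBA2J values were 5.14 and 3.73 TPM in iMo and 6.16 and 32.4 TPM in pMo, where the second pMo library was inside the C57BL6J range. Macrophage libraries ran from 0.992 to 8.27 TPM.

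Of the receptors, Klrd1 (chr6:129591810-129598775, plus), which encodes CD94, read 2.92 and 11.2 TPM in iMo and 10.4 and 25.0 TPM in pMo of C57BL6J. In DBA2J it read 0.897 and 0.141 TPM in iMo and 0.639 and 3.35 TPM in pMo, and the IM libraries reached 3.92 TPM. NK cells of the DBA/2J strain are known to lack CD94, as background.

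Klre1 (chr6:129578286-129585827, plus), a partner of other lectin-like receptors, was covered by the fewest reads. It read 1.20 and 5.25 TPM in iMo and 3.49 and 9.19 TPM in pMo of C57BL6J, and in DBA2J it had 0 reads in both iMo libraries, where a count of 0 allows up to 3 reads as a one-sided limit, and 0.197 and 1.71 TPM in pMo. The C57BL6J values stood above all 8 macrophage libraries, which reached 1.05 TPM.

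Klrb1c (chr6:128778485-128788641, minus), the gene of the NK1.1 receptor, read 1.63 and 6.63 TPM in iMo and 4.68 and 8.42 TPM in pMo of C57BL6J, against 0.123 and 0.290 TPM in iMo and 0.438 and 0.665 TPM in pMo of DBA2J. It was the one gene whose DBA2J monocyte levels were all below the median of the macrophage libraries, 1.14 TPM. The gene has near-identical neighbours, so its value is uncertain where reads could be split between them.

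Ncr1 (chr7:4337724-4345164, plus), which encodes NKp46, read 3.95 and 8.16 TPM in iMo and 6.62 and 17.9 TPM in pMo of C57BL6J. In DBA2J it read 0.672 and 0.132 TPM in iMo and 0.797 and 9.00 TPM in pMo. No macrophage library exceeded 0.825 TPM, and the second DBA2J pMo library was inside the C57BL6J range.

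Klrk1 (chr6:129610323-129622683, minus), which encodes NKG2D, a receptor for stress ligands, went another way. It read 6.27 and 10.5 TPM in iMo and 6.67 and 16.4 TPM in pMo of C57BL6J, and 17.4 and 9.37 TPM in iMo and 4.72 and 11.7 TPM in pMo of DBA2J, so that the strains overlapped. The IM of DBA2J held 16.5 and 11.9 TPM, against 4.94 and 1.44 TPM in IM of C57BL6J. The AM libraries stayed at 0.318 TPM or below.

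Across all groups the mean was highest in C57BL6J pMo for 9 of the 10 genes and in DBA2J IM for Klrk1, and lowest in C57BL6J AM for 8. All 4 C57BL6J monocyte libraries were above all 8 macrophage libraries for 7 of the 10 genes, where 5.43% of all genes tested did the same; the genes were chosen on this contrast and nothing is read from it. With all 8 monocyte libraries the number was 0, and the same held for the 4 DBA2J monocyte libraries alone. In both DBA2J iMo libraries the 9 genes other than Klrk1 were inside or below the range of the macrophage libraries. The second DBA2J pMo library was above that range for Gzma, Gzmb, Prf1, Nkg7, Ncr1, Klre1 and Ccl5, and inside it for Klrd1 and Klrb1c.

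Together the 9 genes other than Klrk1 gave 509 and 569 reads in iMo and 1437 and 1522 in pMo of C57BL6J, and 84 and 41 in iMo and 166 and 789 in pMo of DBA2J. Klrk1 gave 103 of the 612 and 98 of the 667 reads of the 10 genes in C57BL6J iMo, and 344 of 428 and 118 of 159 in DBA2J iMo. Its log2 level had a Pearson correlation of 0.50 over the 16 libraries and 0.13 over the 8 monocyte libraries with the mean of the other 9 genes, while each of those 9 ranged from 0.78 to 0.98 and from 0.90 to 0.99. The libraries share depth and scale, so these are descriptions.

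**Figure D2:**
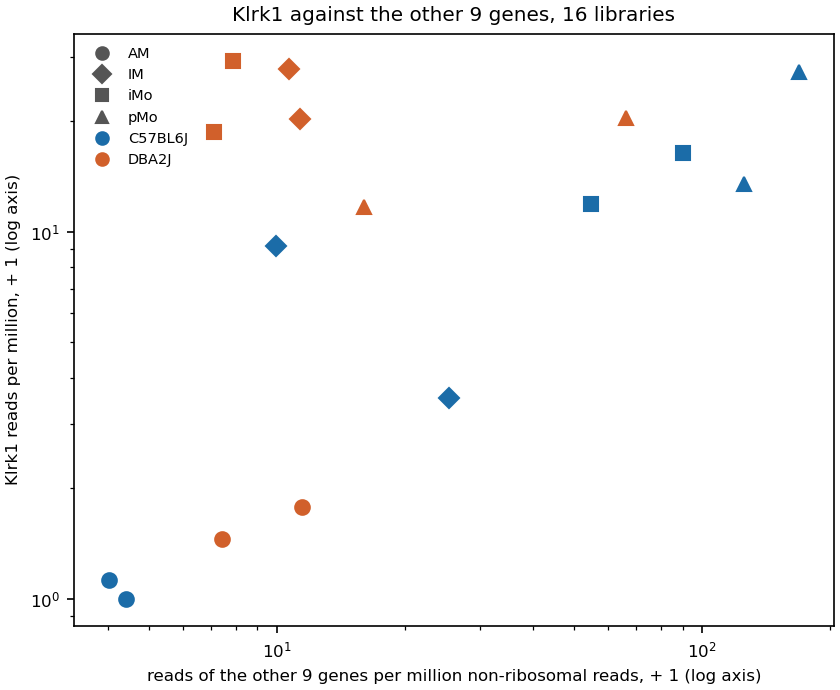
Klrk1 reads (y axis, + 1, log axis) against the summed reads of the other 9 genes (x axis, + 1, log axis), both scaled to the library's non-ribosomal reads (RPM), with 1 point per library. The C57BL6J monocytes and the second DBA2J pMo library lie high on both axes, and DBA2J iMo and IM lie high for Klrk1 only.

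The strain comparison asked whether DBA2J monocytes differ from C57BL6J monocytes. Of the 10 genes, 9 were lower in DBA2J when both monocyte types were averaged, and none was higher (limma on log2(TPM + 1), Benjamini-Hochberg adjusted p under 0.05 over 12277 genes), against 6.56% of all genes lower and 2.66% higher. The median difference of the 10 was -2.17 on the log2(TPM + 1) scale, a scale that understates changes of low genes, against -0.15 for all genes. The granule genes Gzmb and Nkg7 differed by -3.27 (SE 0.478) and -2.93 (SE 0.625), with limma adjusted p of 0.00129 and 0.0137. Gzma differed by -2.74 (SE 0.396, limma adjusted p = 0.00121) and Prf1 by -2.28 (SE 0.436, limma adjusted p = 0.00745). Among the receptors and the chemokine, the differences were -2.46 for Klrd1, -2.07 for Klrb1c, -1.90 for Klre1, -1.90 for Ncr1 and -1.87 for Ccl5, with limma adjusted p of 0.00471, 0.00532, 0.0116, 0.0304 and 0.00898. Gzmb, Klrb1c and Klre1 reached the mean of 1 TPM needed for testing only through the C57BL6J monocyte libraries (means of 0.846, 0.952 and 0.435 TPM over the other 12), so a lower level in DBA2J was favoured by that filter. With no filter, over 20992 genes, 8 of the 10 were called lower, these 3 among them with limma adjusted p of 0.00451, 0.0128 and 0.0233, against 3.40% of all genes lower and 1.66% higher, and Ncr1 missed with limma adjusted p = 0.0634. Klrk1 differed by 0.08 (SE 0.373, limma adjusted p = 0.924). Every DBA2J monocyte library was below every C57BL6J one for 3 of the 10, Gzma, Nkg7 and Klrb1c, against 5.90% of all genes.

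The 9 calls were also made when the second DBA2J pMo library was left out, with log2 differences from -3.80 for Gzmb to -2.12 for Klrb1c. Without the first DBA2J pMo library 6 calls were made, and Nkg7, Ncr1 and Klre1 missed with limma adjusted p of 0.0635, 0.0668 and 0.0522. Fitting the monocyte libraries alone left 4 calls (Gzma, Gzmb, Nkg7 and Klrb1c). The spread then comes from the monocyte libraries only, and why calls were lost was not tested. Among all genes 326 were called higher and 805 lower, and 620 higher and 552 lower without the ribosomal entries, which moves the median of all genes from -0.15 to 0.00; the 9 calls were made under both.

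**Figure D3:**
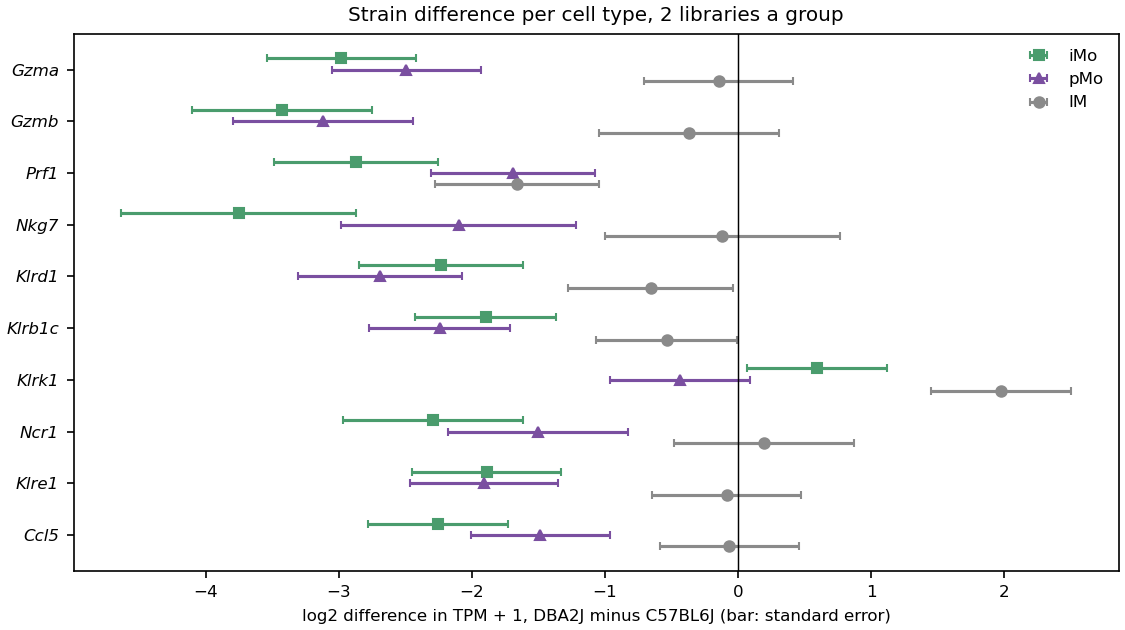
Log2 difference in TPM + 1, DBA2J minus C57BL6J, for each gene within iMo (green squares), pMo (purple triangles) and IM (grey circles), with the standard error as bars. All genes but Klrk1 lie left of 0 in both monocyte types, and Klrk1 lies right of 0 in IM.

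Within iMo, 5 of the 10 were lower in DBA2J, against 2.16% of all genes: Gzma, Gzmb, Prf1, Nkg7 and Ccl5, with 0 higher (1.31% of all genes). Ccl5 differed by -2.26 and Nkg7 by -3.75, with limma adjusted p of 0.0393 and 0.0425. All C57BL6J iMo libraries were above all DBA2J iMo libraries for 9 of 10, where 30.5% of all genes did the same. Within pMo, 4 were lower, Gzma, Gzmb, Klrd1 and Klrb1c, against 2.30% of all genes lower and 1.36% higher, with limma adjusted p of 0.0315, 0.0262, 0.0353 and 0.0407. The pMo libraries of the strains did not overlap for 8 of 10, against 25.9% of all genes. The iMo calls fell to 0 without the second C57BL6J iMo library, without either DBA2J iMo library, or with the monocyte libraries alone. The pMo calls fell to 0 without the second C57BL6J or the first DBA2J pMo library, with the monocyte libraries alone, with a pseudocount of 0.1 or with no filter. No difference between the monocyte types in the strain effect was called for any gene (limma interaction, 0 of 10 called and 0 at an unadjusted p under 0.05), against 0.0489% of all genes higher and 0.0815% lower, and limma-voom on the recovered reads gave 0 too. The interaction ran from -1.03 for Klrk1 to 1.65 for Nkg7, with SE of 0.745 and 1.25, so large differences could be missed.

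In IM, Klrk1 was 1.98 log2 units higher in DBA2J (SE 0.527, limma adjusted p = 0.0365), where 3.77% of all genes were higher and 6.74% lower, and no other gene was called. The call was lost without either DBA2J IM library, without the second C57BL6J IM library, or without any one AM library, with limma adjusted p of up to 0.25. Perforin differed by -1.66 in IM (limma adjusted p = 0.115), and was called lower with a pseudocount of 0.1 or without the ribosomal entries. That difference rests on few reads, 0 and 1 in DBA2J IM against 7 and 23 in C57BL6J IM. In AM 0 of 10 were called, against 1.99% of all genes higher and 1.30% lower (limma, 0 at an unadjusted p under 0.05, lowest adjusted p = 0.53), while limma-voom on recovered reads called Klrb1c higher.

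Between the monocyte types, 9 of the 10 had a lower mean log2 level in iMo than in pMo and 1, Ccl5, was called (-1.14, SE 0.370, limma adjusted p = 0.0439), against 6.36% of all genes lower. The Ccl5 call was kept in 2 of the 16 fits that left out a library, those without either DBA2J pMo library, and none of the 10 was called with a filter of 0.1 TPM or none. Others stood near the threshold: Prf1 by -1.28, Gzmb by -1.39, Nkg7 by -1.72 and Gzma by -1.08, with limma adjusted p of 0.0520, 0.0543, 0.0671 and 0.0692. The median of the 10 was -1.11, against 0.13 for all genes. Among all genes tested, 2324 were higher and 781 lower in iMo, but 1139 higher and 1865 lower without the ribosomal entries, which moves the median of all genes to -0.13; 7 of the 10 were then called lower, and 7 under median-of-ratios scaling. Every pMo library was above every iMo library for 4 of 10 in C57BL6J and for 8 of 10 in DBA2J, against 14.9% and 14.7% of all genes.

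Replicate 2 of DBA2J pMo read between 1.52 times (Klrb1c) and 11.3 times (Ncr1) replicate 1, with a median ratio of 5.74 over the 10 genes. In the same pair the summed T cell markers were 13.5 and 8.81 TPM and the summed B cell markers 218 and 112 TPM for replicates 1 and 2, so both were lower in the library where the cytotoxic genes were higher. The summed levels of the other NK receptor and signalling genes (210 and 375 TPM), of the NK and cytotoxic transcription factors (188 and 333 TPM) and of the neutrophil list (111 and 163 TPM) were higher in replicate 2. Cd244 (111 and 222 TPM) and Sh2d1b1 (42.1 and 80.2 TPM) dominated the first sum. Zeb2 (105 and 229 TPM) dominated the second and Csf3r (99.0 and 150 TPM) the third. These genes were also measured in every IM library, so the sums do not describe the lists gene by gene. The ribosomal entries took 57.4% and 47.2% of the TPM in the 2 libraries.

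The other NK genes were read from lists of names. With no filter on level, 9 of 26 further NK receptor and signalling genes were lower in DBA2J over both monocyte types and 0 higher, against 3.40% of all genes lower and 1.66% higher. They were Il2rb, Sh2d2a, Klrb1b, Klrc1, Klrc2, Klra4, Klra7, Klra8 and Klra9. With the filter 14 were tested and 5 were lower, Il2rb, Sh2d2a, Klrb1b, Klri2 and Il18rap, against 6.56% of all genes, and Klri2 and Sh2d2a reached the filter only through C57BL6J monocytes. Il2rb, the shared beta chain of the IL-2 and IL-15 receptors, differed by -2.03 (limma adjusted p = 0.00524). Cd244 differed by -0.22 (limma adjusted p = 0.716).

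The Ly49 genes Klra8 and Klra4, chosen after their values were seen, had no reads in DBA2J monocytes. Klra8 had 23, 50, 46 and 69 reads in the C57BL6J monocyte libraries and 0 in every DBA2J and macrophage library, where a count of 0 allows up to 3 reads as a one-sided limit. Klra4 had 10, 47, 54 and 47 reads in C57BL6J monocytes and 0 in DBA2J monocytes. Klrb1f, a relative of Klrb1c also chosen after its values were seen, had 155 and 85 reads in DBA2J iMo and 39 and 67 in C57BL6J iMo. Its iMo levels were 8.37 and 7.21 TPM in DBA2J and 2.54 and 7.65 TPM in C57BL6J, so the strains overlapped. The strain difference over both monocyte types was not called (limma adjusted p = 0.567). The authors' build mm10 is the C57BL/6J genome, and its effect on reads from DBA2J was not tested.

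Of 18 further granule and effector genes 11 passed the filter, and 3 were lower in DBA2J monocytes (6.56% of all genes were), Ccl4, Ccl3 and Srgn, by -2.33, -1.91 and -0.87. With no filter 17 were tested, and 6 were lower and 0 higher, against 3.40% of all genes lower and 1.66% higher. The added genes were Fasl, Serpinb6b and Xcl1 (limma adjusted p = 0.0127, 0.0387 and 0.00767). Their means over the monocyte libraries were low, at 0.483, 1.13 and 1.56 TPM. The chemokines Ccl3 and Ccl4 and the granule proteoglycan gene Srgn are also expressed by myeloid cells. Stxbp2, Stx11 and Unc13d, genes of granule docking and fusion, differed by -0.03, 0.26 and 0.09 (limma adjusted p = 0.873, 0.461 and 0.756).

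Among 11 transcription factor genes 9 passed the filter and 4 were lower in DBA2J monocytes, against 6.56% of all genes. The T-box factors that define NK cells were both among them: Tbx21 by -1.59 (limma adjusted p = 0.00682) and Eomes by -1.45 (limma adjusted p = 0.0420). Both reached the filter only through C57BL6J monocytes, which favoured this direction. With no filter 3 of the 11 were lower, Tbx21 with limma adjusted p = 0.0113, and Eomes missed with limma adjusted p = 0.0702. Eomes read 0.663 and 2.83 TPM in iMo and 4.47 and 5.81 TPM in pMo of C57BL6J, and was at 0 in both DBA2J iMo libraries and 0.249 and 2.40 TPM in pMo. Id2 and Nfil3, the others, differed by -0.72 and -1.10, and both are expressed in myeloid cells. Zeb2 differed by -0.01 (limma adjusted p = 0.997).

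**Figure D4:**
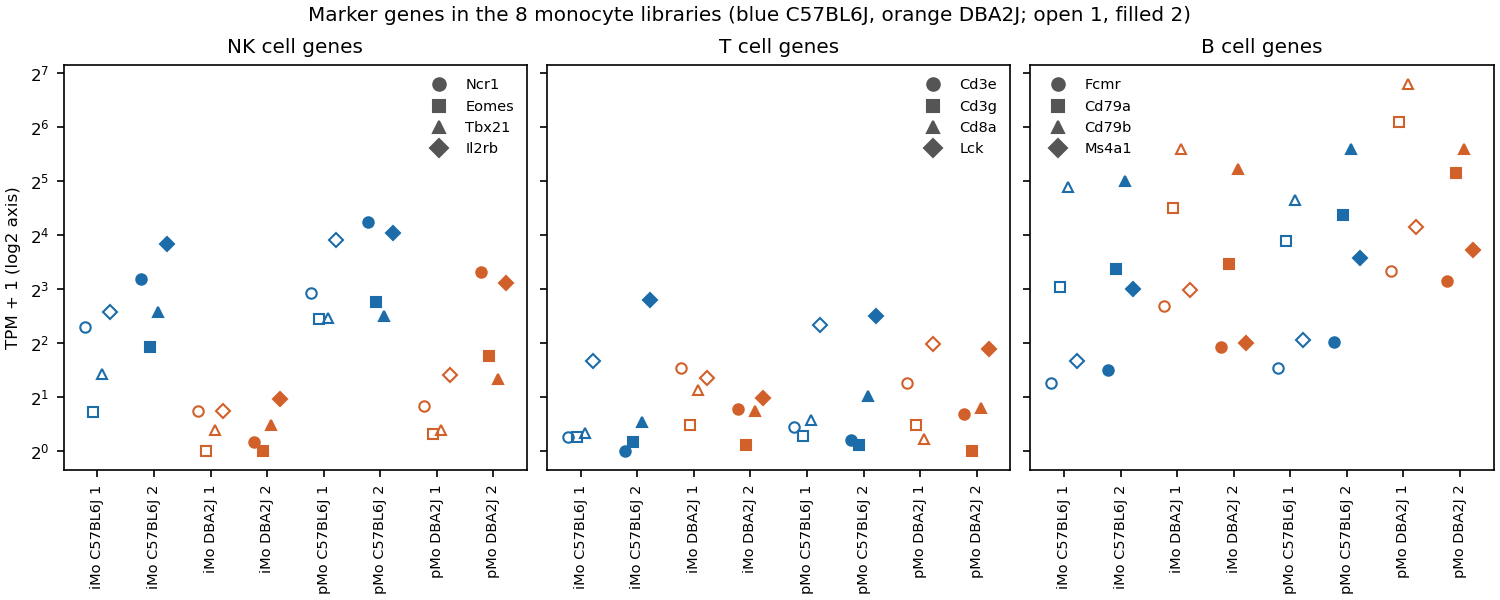
NK, T and B cell genes in the 8 monocyte libraries, as TPM + 1 on a log2 axis, blue for C57BL6J and orange for DBA2J, open for replicate 1 and filled for replicate 2. The highest levels of Eomes, Tbx21 and Il2rb are in C57BL6J libraries, and the B cell genes reach their highest levels in DBA2J pMo.

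Markers of other lymphocytes were measured beside the set. Of 15 T cell markers 7 were tested and 0 were called by limma in either direction (2 at an unadjusted p under 0.05, Cd3e and Lck), while limma-voom called 1, Cd3e, higher in DBA2J. Their summed level was 4.51 to 13.1 TPM in C57BL6J monocytes and 5.39 to 13.5 TPM in DBA2J monocytes. Cd3e read 0.208, 0, 0.369 and 0.158 TPM in the 4 C57BL6J monocyte libraries, in the order iMo then pMo, and 1.90, 0.724, 1.41 and 0.623 TPM in those of DBA2J (limma adjusted p = 0.0600). Of 6 B cell markers tested, 1 was higher in DBA2J monocytes, Fcmr by 1.19 (limma adjusted p = 0.0395), and 0 were lower, against 2.66% of all genes higher and 6.56% lower. Limma-voom called 4 higher, Fcmr, Cd79a, Blk and Pax5, and limma with no filter called 0. Their summed level was 41.5 to 85.9 TPM in C57BL6J monocytes and 54.9 to 218 TPM in DBA2J monocytes. The 10 neutrophil markers summed to 116 to 231 TPM and 111 to 240 TPM in C57BL6J and DBA2J monocytes, of which Csf3r, a receptor that monocytes also express, gave 99.0 to 230 TPM. Ly6g was at 0 in all 8, and 1 of 7 tested, S100a8, was higher in DBA2J, reading 0 to 4.44 TPM in C57BL6J and 3.83 to 9.73 TPM in DBA2J monocytes.

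A few markers of myeloid cells were also lower in DBA2J monocytes. The median differences were -0.16 (dendritic cell list), -0.12 (patrolling monocyte), -0.28 (interstitial macrophage), 0.04 (inflammatory monocyte) and -0.33 (alveolar macrophage). The median was -0.15 for all genes, of which 6.56% were lower, and -2.17 for the set. Of 6 dendritic cell markers tested 2 were lower in DBA2J monocytes, Clec9a by -0.99 (limma adjusted p = 0.00867) and Flt3 by -0.82 (limma adjusted p = 0.0330). Of 9 patrolling monocyte markers 1 was lower, Cd300e by -1.40 (limma adjusted p = 0.0149), and of 5 interstitial macrophage markers 1, C1qb by -0.99 (limma adjusted p = 0.0402), with 0 higher in these lists. Flt3 and C1qb missed with no filter, and limma-voom did not call C1qb. Of 6 inflammatory monocyte and 6 alveolar macrophage markers 0 were called by limma (1 and 0 at an unadjusted p under 0.05), and limma-voom called 1, Vcan, higher in DBA2J. The 6 basophil and mast cell markers were too low to pass the filter, and with no filter 1, Ms4a2, was lower in DBA2J. They summed to 4.95 and 4.16 TPM in C57BL6J pMo, 0.0190 and 0.751 TPM in DBA2J pMo, and at most 0.239 TPM in iMo of either strain. The part of any of these cells in the strain differences was not tested.

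The 10 genes whose pattern was most like the mean of the set over the 16 libraries, by Pearson correlation, were Il2rb (0.97), Tbx21 (0.96), Klri2 (0.94), Ggct (0.94), Eomes (0.93), Ddr1 (0.92), Tcea3, Klra13-ps, Klra23 and Nod1 (0.91 each). Of these, Il2rb, Klri2, Tbx21 and Eomes are on the lists above. Klri2, Tbx21 and Eomes reached the filter only through C57BL6J monocytes, which favoured a likeness to this set. Klra13-ps and Klra23, named as Klra genes like Klra8 and Klra4, averaged 5.11 and 5.01 TPM in C57BL6J monocytes. In DBA2J monocytes they averaged 0.349 and 0.337 TPM. Il2rb averaged 11.9 TPM in C57BL6J monocytes, 2.75 in DBA2J monocytes and 0.974 in macrophages. With the 8 monocyte libraries alone, or with Spearman's rank correlation, 2 of the 10 were shared with this group.

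Open chromatin was compared through 8 peak lists, 1 per group, made from 2 libraries each. The labels name them IDR optimal peaks, and IDR (irreproducible discovery rate) is a measure of how well replicate peak calls agree. Values per library were not used here, so differences between lists have no replicate test. A peak lay within 1 kb of the start of 2 of the 10 genes in iMo of C57BL6J (Klrd1 and Klrb1c), 2 in IM of C57BL6J (Klrd1 and Prf1), and 1, Klrd1, in each of DBA2J iMo, C57BL6J pMo and DBA2J pMo. None was found in AM of either strain or in DBA2J IM. The share of all 24940 genes with such a peak was 42.2% in C57BL6J iMo, 52.8% in C57BL6J IM, 44.5% in DBA2J iMo, 42.5% in C57BL6J pMo, 41.0% in DBA2J pMo and in DBA2J IM, and 35.2% and 39.3% in AM of C57BL6J and DBA2J. The counts for the set were below these shares in every list.

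Gzma, Gzmb, Klrk1 and Ncr1 had no peak within 10 kb of the gene in any of the 8 lists, although all 4 were measured as RNA in C57BL6J monocytes. The peak at Klrd1 had its centre 86 to 102 bases before the start, in both strains: in iMo of C57BL6J at chr6:129591611-129591811 and in pMo of DBA2J at chr6:129591608-129591808, where the RNA levels were 2.92 and 11.2 against 0.639 and 3.35 TPM. By the authors' score, counting from the highest, that peak was number 19520 of 35947 in the C57BL6J iMo list and 29578 of 32636 in the DBA2J iMo list. It was number 25932 of 45534 in the C57BL6J pMo list, 20412 of 26592 in the DBA2J pMo list and 64200 of 70013 in the C57BL6J IM list. The lists differ in length, so these ranks show no change. What the score measures was not stated, and it is the authors' own and ranks peaks within a list only.

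Within 10 kb, Klrb1c had peaks in C57BL6J lists only. They lay at its start in iMo (chr6:128788555-128788755, centre 14 bases before the start), about 2.0 kb inside the gene in iMo, pMo and IM, and 9.8 kb before its start in pMo and IM. They ranked at 61.0% to 86.6% of their lists. The C57BL6J lists held 70013 (IM), 45534 (pMo) and 35947 (iMo) peaks, against 24429, 26592 and 32636 in DBA2J. Absence from a shorter list is therefore no measure of a strain difference. Prf1 had a peak 157 bases before its start in C57BL6J IM, ranked at 93.9%, and Ccl5 one 2.9 kb before its start in C57BL6J pMo and IM and in DBA2J AM. Nkg7 had 2 peaks in all 8 lists, at 6.4 and 6.9 kb after its start, next to the start of the neighbouring gene Etfb, so they are not particular to the monocytes. Klre1's listed peak was that of Klrd1.

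**Figure D5:**
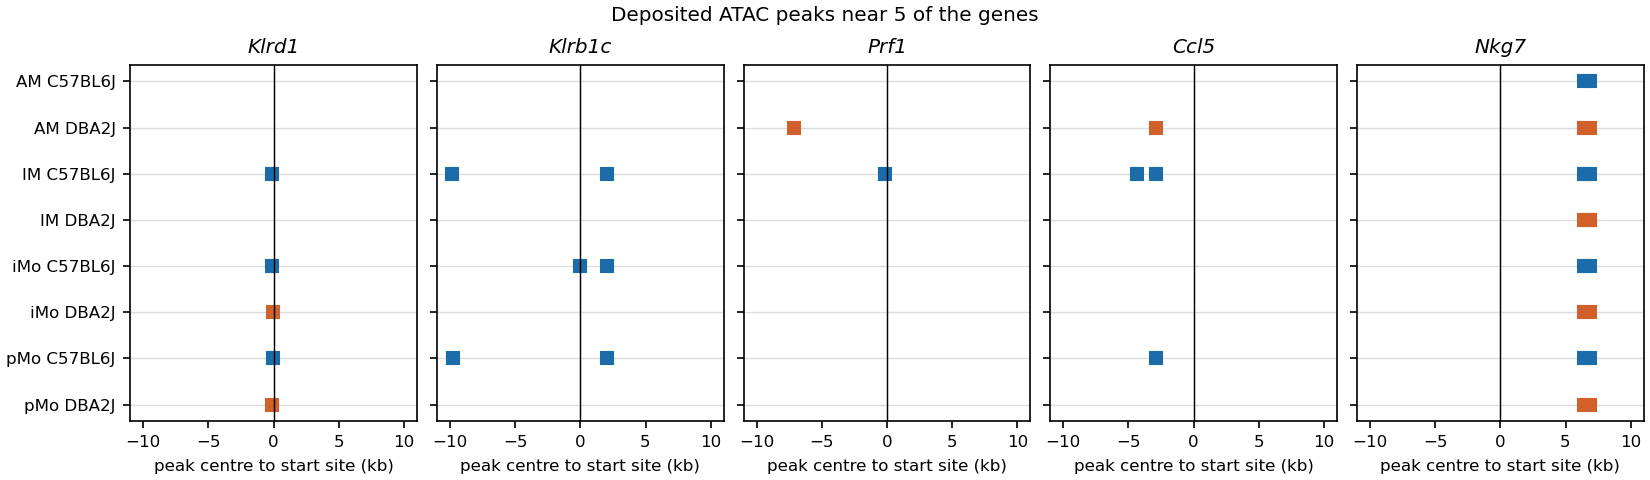
ATAC peaks within 10 kb of 5 of the genes, one row per peak list, with the distance from the gene's start in kb on the x axis (minus is before the start), blue for C57BL6J and orange for DBA2J. The Klrd1 peak appears in 5 lists, the Klrb1c peaks only in C57BL6J lists, and the Nkg7 peaks in all 8. The lists differ in length.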

How the data were processed

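RNA-seq (16 libraries) and ATAC-seq peaks (8 lists) of sorted lung phagocytes were analysed. The deposited RNA values are TPM per gene, per the file headers, and the deposited peaks carry a score per peak in a list with no header. Per the submitters' processing notes the build was mm10 and the tools Bowtie, STAR and HOMER, with roles and versions not given in the sources used here. Whether intronic reads were counted is likewise not given. No columns of other samples were used.

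The 12277 genes averaging 1 TPM or more entered limma 3.58.1 (R 4.3.3) on the log2(TPM + 1) scale, as 8 group means with a shared spread, eBayes with a trend and Benjamini-Hochberg adjustment within a contrast. Peaks were compared in Python 3.11.15 with pandas 2.3.3. Members and lists were chosen with earlier results of these data known. Alternatives covered pseudocount, filter, scaling, trend, block, libraries and peak windows, and limma-voom on recovered reads was added after the data were seen. The fit was tested on simulated data. Named genes were the 10, up to 4 of each list by monocyte level, the defining markers and the 10 most alike, with others stated where chosen after their values were seen. A B cell and an interstitial macrophage marker of the lists are not reported here and were left out of their lists' counts and sums.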

Additional observations from a re-analysis of the deposited data

Results flagged for a closer look

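For each of the 10 genes, the 4 libraries of a cell type, both strains together, were checked for one that lay far from the rest, on log2(TPM + 1), in 40 groups of 4. Chance marks about 1 in 20 such groups, and 3 were marked. Prf1 in AM had its highest value in DBA2J replicate 2 (gap over range 0.875), Klrd1 in IM had its highest in C57BL6J replicate 2 (0.83), and Ccl5 in pMo had its lowest in DBA2J replicate 1 (0.842). The values are 1.53 TPM against 0.654 for Prf1 in the other DBA2J AM library, 3.92 against 1.34 TPM for Klrd1 in the other C57BL6J IM library, and 6.16 against 32.4 TPM for Ccl5 in the other DBA2J pMo library.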

How the results depend on the processing

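Over alternatives other than leaving out a library, single differences kept their direction and side of the threshold in 358 cases, gained a call in 32, lost one in 38 and turned in 1. Calls of members as lower in DBA2J monocytes were 9 under the alternatives run, except 8 with no filter and 4 with the monocyte libraries alone. Lower in iMo than in pMo were 0 with a filter of 0.1 TPM or none, 4 with quantile normalization, 7 with median-of-ratios scaling, 7 without ribosomal entries and 8 with limma-voom. Within iMo, 3 were lower with a filter of 0.1 TPM, 2 with no filter, 3 with quantile normalization and 0 with monocytes alone. Within pMo, 0 were lower with a pseudocount of 0.1, with no filter, or with monocytes alone. In IM, 0 were higher with a pseudocount of 0.1 or no filter, and 1, Prf1, was lower with that pseudocount or without ribosomal entries. In AM limma-voom gave 1 higher, Klrb1c. The cause was not tested except as stated.

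Replicate numbers showed little pairing over all genes tested: over 28 pairs of groups the median correlation of deviations was 0.02, from -0.07 to 0.20, with 5 over 0.1. Among the members, replicate 2 was above replicate 1 for 10 in C57BL6J iMo, 8 in C57BL6J pMo and 10 in DBA2J pMo. It was above for 3 of 9 in DBA2J iMo. With the replicate block, 4 members were lower in iMo than in pMo.

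Leaving out one library at a time gave 0 to 7 lower in iMo than in pMo (7 without DBA2J pMo replicate 1), 6 to 9 lower in DBA2J over both monocyte types, 0 to 6 within iMo (0 without C57BL6J iMo replicate 2 or either DBA2J iMo library), 0 to 6 within pMo (0 without C57BL6J pMo replicate 2 or DBA2J pMo replicate 1), and in IM 0 to 1 higher and 0 to 1 lower. Klrk1 turned sign near 0: its log2 difference ranged from -0.22 to 0.38 over both monocyte types, from -1.03 to 0.15 in pMo and from -0.12 to 0.47 between iMo and pMo, and was -0.10 between them without ribosomal entries.

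Members with a peak near the start were, with a 5 kb window, 1 in DBA2J AM, 4 in C57BL6J IM and 3 in C57BL6J pMo, and 0 in C57BL6J IM, both iMo and both pMo lists when only peaks at or above the list's median score counted. Peaks near the genes were, in the order C57BL6J AM, DBA2J AM, C57BL6J IM, DBA2J IM, C57BL6J iMo, DBA2J iMo, C57BL6J pMo and DBA2J pMo, 0, 0, 2, 0, 3, 1, 2 and 0 in the gene body and 24, 34, 55, 19, 27, 22, 34 and 22 within 50 kb. At or above the median score they were 2 in DBA2J AM, 3 in C57BL6J IM, 2 in C57BL6J iMo and 2 in C57BL6J pMo. Of the 10 genes most alike, 2 remained with the 8 monocyte libraries and 2 with Spearman. Low reads limit Klre1, Gzmb, Klrb1c, Nkg7, Klrd1, Ncr1 and Gzma in DBA2J, with 10 reads or fewer for each in either iMo library.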
